A study of Macaca fascicularis with 21 samples.

Results

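The genes described here are the matrix metalloproteinases (MMPs), the ADAMTS proteases and the tissue inhibitors of metalloproteinases (TIMPs) of cynomolgus monkey (Macaca fascicularis) embryos grown in vitro. They are the rows of the deposited count table whose names are MMP, ADAMTS or TIMP followed by a number, which gave 43 of 30792 genes: 21 MMPs, 19 ADAMTS genes and 3 TIMPs (TIMP1, TIMP3 and TIMP4). The rule reads names and no measured value, although it was set with earlier results of these data known. MMP2 and TIMP2 stand in the table under numbered identifiers and so fall outside the name rule. TIMP2 was kept as the remaining inhibitor and MMP2 was added after its values had been seen, and both are given beside the 43 where a result turns on them.

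MMPs are zinc proteases that are made as inactive proenzymes and cut collagens, laminins, elastin and other components of the extracellular matrix once activated. Some MMPs are secreted, while the membrane-type members (MMP14, MMP15, MMP16, MMP17, MMP24 and MMP25) stay at the cell surface. ADAMTS proteases are secreted and carry thrombospondin repeats. The proteoglycanases among them (such as ADAMTS1, ADAMTS4, ADAMTS5, ADAMTS9, ADAMTS15 and ADAMTS20) cut versican or aggrecan, and the procollagen N-proteinases (ADAMTS2, ADAMTS3 and ADAMTS14) trim fibrillar procollagens. TIMPs bind the active site of MMPs, and TIMP3, which stays bound to the matrix, also inhibits some ADAMTS proteases. In human implantation, invasive trophoblast secretes MMPs while it enters the uterine wall, whereas these embryos grew on Matrigel, a gel of basement membrane proteins, with no uterus.

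Blastocysts freed of their zona pellucida were cultured singly on the gel in medium with rising serum, and embryos were collected on days 11, 12, 13, 14, 16 and 17, with 2, 5, 3, 4, 4 and 3 embryos on those days. The implantation site was cut out and extra-embryonic tissue was trimmed before digestion, so the cells that were picked by hand do not show how large each cell type was in the embryo. No embryo carried a mutation or received a treatment according to the labels, and day is the only variable they give. RNA was read at the 3' end. A count therefore reflects the end of a transcript and not its length.

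The authors' annotation assigns each of the 1453 cells to 1 of 12 types, which were merged into 7 families. They are trophectoderm and its derivatives (TE, 380 cells), extraembryonic mesenchyme (EXMC, 485), visceral or yolk sac endoderm (VE/YE, 101), amnion (AM, 82), gastrulating cells (Gast, 83), primordial germ cells (PGC, 18) and epiblast (EPI, 304). Counts were summed per embryo and family wherever an embryo had at least 5 cells of it, which gave 16 sums for TE, 19 for EXMC, 9 for VE/YE, 6 for AM, 6 for Gast, 3 for PGC and 14 for EPI. TE had no sum on day 16. All 6 TE markers and all 8 VE/YE markers found in the table were highest in their own family, as were 5 of 7 EXMC, 4 of 6 PGC, 3 of 7 AM and 3 of 6 EPI markers. Only MESP1 of 6 Gast markers was highest in Gast, so that name rests on the annotation alone. Totals ran from 2540816 to 11857191 counts per embryo and from 3376 to 483669 per cell. These types label the same cells whose RNA is compared, so a difference between types is not independent of any gene that helped to define them.

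Levels are in CPM, counts as a share of an embryo's family sum on the usual scale, adjusted by trimmed mean of M-values (TMM) factors. CPM are not corrected for transcript length, so the order of genes within a family is an order of 3' counts. Changes are log2 values with standard errors (SE) from edgeR's quasi-likelihood test, and a gene was called where its Benjamini-Hochberg adjusted p over all genes tested was under 0.05. For slopes with day, the spread that these p-values measure is the spread between embryos. For comparisons of families, and of slopes between families, it is the spread over embryos of the difference inside an embryo. Comparisons of families used the embryo as a block, and those that share a family (EPI in 5 of them) share its sums.

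The 43 genes held 221711 of 144879706 counts (0.153%). The 5 highest, TIMP1 (44775 counts), ADAMTS20 (35408), ADAMTS6 (21089), ADAMTS1 (17328) and MMP12 (17208), made up 61.3% of that. All 43 had a count in at least 1 embryo and 20 had a count in all 21. Under 150 counts in the whole table were found for 11 members, which were MMP7, MMP8, MMP10, MMP13, MMP20, MMP21, MMP24, MMP26, MMP27, ADAMTS8 and ADAMTS14. Of the 31 members that averaged at least 5 CPM in some family, 10 were highest in TE, 11 in EXMC, 3 in VE/YE, 3 in AM, 2 in PGC, 2 in EPI and 0 in Gast. The same tally was not made over all genes, so whether members favor TE or EXMC more than other genes do was not tested. Some of these places are uncertain. The standard deviation over embryos exceeded the mean for several members, among them ADAMTS13 in EPI and MMP1 in EXMC. Both PGC places, ADAMTS3 and MMP17, rest on 3 sums.

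**Figure D1:**
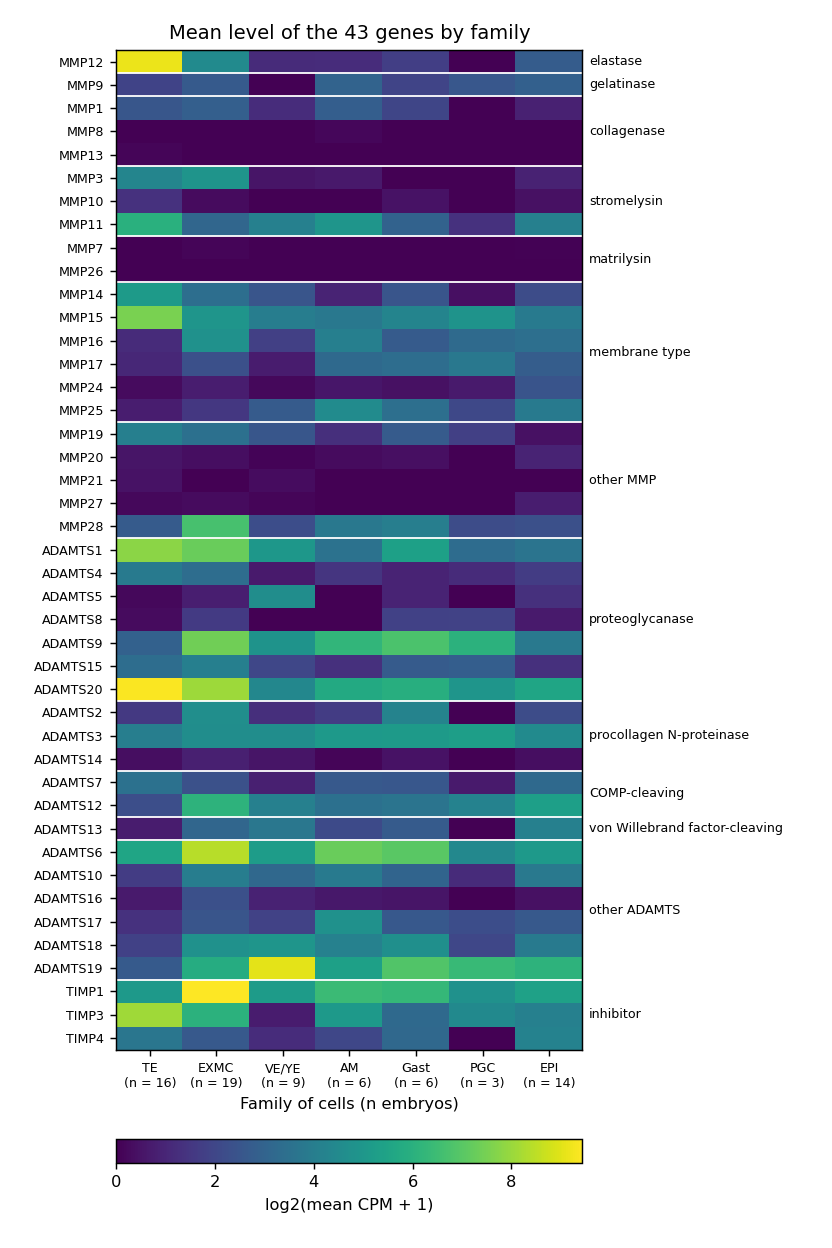
Heat map of log2(mean CPM + 1) over embryos for the 43 members (rows, grouped by class) in the 7 families (columns, with the number of embryos). The mean is highest in TE for ADAMTS20, ADAMTS1, MMP12, MMP15 and TIMP3. It is highest in EXMC for TIMP1, ADAMTS6, ADAMTS9 and MMP28, and in VE/YE for ADAMTS19. ADAMTS20 and ADAMTS1 were not called between TE and EXMC, and TIMP3 was not called between TE and either EXMC or EPI.

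Of the 40 proteases that met the name rule, ADAMTS20 in TE had the highest mean level over the 7 families. The 5 highest members of TE were ADAMTS20 at 660 ± 497 CPM, MMP12 at 573 ± 1209, TIMP3 at 272 ± 831, ADAMTS1 at 219 ± 143 and MMP15 at 185 ± 127 (SD, n = 16). MMP2, the gelatinase that MMP14 activates at the cell surface, reached 2152 ± 1275 CPM. For MMP12 and TIMP3 the SD exceeded the mean, whereas the other 3 members varied by less than their mean.

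Against EPI, MMP15, ADAMTS20, ADAMTS1 and MMP14 were higher in TE, while ADAMTS19, ADAMTS10 and 4 of the 6 membrane-type MMPs were lower. Of 30 members tested in the 10 embryos with both families, 6 were higher in TE and 8 lower, against 43.6% of all 15159 genes called in either direction (20.9% higher and 22.7% lower). The median log2 difference was −0.52 over the members and −0.06 over all genes. The members' called share therefore lay near that of all genes, and the description rests on the single genes.

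MMP15, a membrane-type MMP, had 29.8, 175 and 457 CPM in TE (lowest, median and highest embryo), against 3.33, 16.8 and 44.9 CPM in EPI. It was higher in TE of all 10 embryos, with a log2 difference of 3.54 ± 0.32 (adjusted p = 8.49e-08), although the ranges met. ADAMTS20, a versican-cleaving protease, had 147, 679.6 and 2073 CPM in TE and 11.3, 25.3 and 68.8 CPM in EPI, so the ranges did not overlap (4.45 ± 0.43, adjusted p = 5.34e-06). ADAMTS1 had 16.3, 232 and 499 CPM in TE and 2.66, 9.73 and 35.0 CPM in EPI (4.16 ± 0.37, adjusted p = 1.22e-07). Its lowest TE embryo lay inside the EPI range although TE was higher in each of the 10 embryos. MMP14, which activates pro-MMP2, had 11.2, 23.8 and 81.9 CPM in TE and 0, 2.08 and 11.0 CPM in EPI (3.40 ± 0.49, adjusted p = 2.14e-05). MMP19, a secreted MMP, was low in both, with at most 31.7 CPM in TE and 3.68 CPM in EPI (4.98 ± 0.88, adjusted p = 0.000211). The added gene MMP2 had 1118, 2130.1 and 5627 CPM in TE and 96.0, 206 and 276 CPM in EPI (3.41 ± 0.35, adjusted p = 1.74e-05). Its ranges, like those of MMP14, did not overlap.

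ADAMTS19, a protease with no well-established substrate, was lower in TE, at 0.763, 2.91 and 15.4 CPM against 20.1, 51.9 and 149 CPM in EPI. It was lower in all 10 embryos with no overlap (−4.28 ± 0.37, adjusted p = 4.42e-08). ADAMTS10, which is linked to fibrillin microfibrils, had 0, 2.31 and 6.86 CPM in TE and 3.68, 14.4 and 26.5 CPM in EPI (−2.69 ± 0.62, adjusted p = 0.00188). The membrane-type genes MMP25, MMP17 and MMP24 had medians of 0, 0.244 and 0 CPM in TE and of 7.29, 5.28 and 2.23 CPM in EPI. Their log2 differences were −4.37 ± 1.05, −3.27 ± 0.81 and −3.65 ± 0.94, with the largest adjusted p of 0.00505. MMP9 and MMP16 were also called lower and MMP11 higher. MMP12 did not pass against EPI (3.20 ± 1.79, adjusted p = 0.177). Among the inhibitors, TIMP1 had 3.82, 9.40 and 139 CPM in TE against 7.37, 37.3 and 89.9 CPM in EPI and was lower in 7 of 10 embryos (−1.33 ± 0.44, adjusted p = 0.0189). That call was lost without day 13 replicate 2 (or without day 14 replicate 2), with sums of at least 10 cells, and without the replicate block (−0.71, adjusted p = 0.400). TIMP3 (−0.25 ± 1.21, adjusted p = 0.890) and TIMP4 (−0.79 ± 0.56, adjusted p = 0.266) did not pass, and TIMP2 was higher in TE (1.80 ± 0.57, adjusted p = 0.0201).

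TE and EXMC, both outside the embryo proper, differed in part of the members and shared others. In the 14 embryos with both, 4 of 31 members tested were higher in TE and 12 were lower, against 33% of all genes called (17% higher and 16% lower). The median log2 difference was −1.49 over the members and 0.01 over all genes. TIMP1 had 3.82, 27.6 and 139 CPM in TE and 254, 416 and 1684 CPM in EXMC (−4.77 ± 0.36, adjusted p = 1.26e-07). MMP28, a secreted MMP also called epilysin, had 0.474, 3.94 and 19.7 CPM in TE and 21.01, 75.3 and 215 CPM in EXMC (−4.29 ± 0.26, adjusted p = 1.11e-11). ADAMTS9 had 0, 5.17 and 20.2 CPM in TE and 34.1, 140.3 and 213 CPM in EXMC (−4.71 ± 0.35, adjusted p = 1.54e-09). For these 3 genes no TE embryo reached the lowest EXMC embryo.

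ADAMTS6, a relative of ADAMTS10, had 5.34, 44.2 and 143 CPM in TE and 97.1, 289.9 and 686 CPM in EXMC (−3.04 ± 0.26, adjusted p = 3.71e-08). It was lower in TE of all 14 embryos, although the ranges met. ADAMTS18 (−3.66 ± 0.46), MMP16 (−4.03 ± 0.55), ADAMTS2 (−3.74 ± 0.56) and ADAMTS19 (−2.66 ± 0.44) were lower in TE with adjusted p of at most 3.89e-05. MMP15 went the other way, at 29.8, 138 and 389 CPM in TE and 13.6, 27.2 and 70.4 CPM in EXMC (2.02 ± 0.31, adjusted p = 3.09e-05). MMP14 had 11.2, 19.8 and 106 CPM in TE and 3.35, 8.10 and 21.1 CPM in EXMC (1.78 ± 0.34, adjusted p = 0.000209). Both membrane-type genes were thus higher in TE, in 14 and 13 of the 14 embryos. MMP12, the macrophage metalloelastase, had 0, 48.0 and 4309 CPM in TE and 0, 1.94 and 234 CPM in EXMC and was higher in TE of 12 embryos (4.21 ± 1.10, adjusted p = 0.0103). MMP11 was the remaining gene higher in TE, and ADAMTS10, ADAMTS12, ADAMTS13 and MMP3 the remaining lower ones. TIMP3 and TIMP4 did not pass in this comparison (adjusted p = 0.634 and 0.343). Nor did ADAMTS20 (1.31 ± 0.51, adjusted p = 0.0626) and ADAMTS1 (−0.05 ± 0.34, adjusted p = 0.937), which are among the highest members of both families.

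With day, more members were called in TE (10) than in EXMC (5), EPI (2) or VE/YE (0), which differ in embryos and in members tested. All genes gave the same order, with 14.9%, 11.8%, 3.81% and 0.145% called, so this order is not a result about the members. In TE, 8 of 21 members tested over 16 embryos rose and 2 fell, against 14.9% of all 12205 genes called (8.07% up and 6.78% down). The median slope was 0.52 per day over the members and −0.01 over all genes. The genes that rose were MMP12, MMP28, the proteases ADAMTS4, ADAMTS7, ADAMTS12 and ADAMTS15, and the inhibitors TIMP1 and TIMP3.

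MMP12 had 1.66 and 1.10 CPM on day 11, 25.9, 0, 0, 6.599 and 2.50 on day 12, 70.1 and 76.3 on day 13, 151, 0.607, 2515 and 20.7 on day 14, and 4309, 1354 and 639.7 on day 17. The 3 day 17 embryos exceeded all others but day 14 replicate 3, and the log2 slope was 2.00 ± 0.48 per day (adjusted p = 0.0135). TIMP3 stood at 4.50 and 2.19 CPM on day 11, between 0.936 and 6.35 on day 12, at 13.0 and 2.29 on day 13, at 18.4, 1.22, 633 and 1.17 on day 14, and at 3326, 254 and 83.8 on day 17. The same embryo of day 14 stood apart from its day, and the slope was 1.68 ± 0.33 (adjusted p = 0.00455), or 1.57 (adjusted p = 0.0732) without day 17 replicate 1. TIMP1 averaged 5.78, 7.54, 32.0, 42.6 and 80.0 CPM on days 11, 12, 13, 14 and 17 (0.70 ± 0.14 per day, adjusted p = 0.00255).

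ADAMTS15 averaged 0.237, 0.600, 2.66, 9.74 and 34.1 CPM over the same days, with 56.8, 26.9 and 18.6 CPM in the day 17 embryos (1.21 ± 0.24 per day, adjusted p = 0.00259). ADAMTS4, best known for cutting aggrecan, had 79.7, 107 and 0 CPM on day 17 and at most 11.1 CPM before (1.25 ± 0.20, adjusted p = 0.000687). Day 17 was therefore not uniform for it. ADAMTS12 (0.73 ± 0.16), MMP28 (0.60 ± 0.15) and ADAMTS7 (0.66 ± 0.20) had day 17 values of 9.32 to 18.2, 11.5 to 19.7 and 30.6 to 37.4 CPM. ADAMTS7 and ADAMTS12 both cut cartilage oligomeric matrix protein. MMP28 lost its call without day 17 replicate 1, ADAMTS12 lost it with at least 10 cells per sum (adjusted p up to 0.116), and ADAMTS7 lost it without day 11 replicate 1 or 2 or any of the 3 day 17 embryos (adjusted p up to 0.753 over its alternatives). ADAMTS1, in contrast, averaged 447, 284, 88.0, 208 and 63.8 CPM and fell by 0.38 ± 0.12 per day (adjusted p = 0.0372). TIMP4 fell by 0.67 ± 0.21 per day (adjusted p = 0.0347), with 0, 2.88 and 0 CPM on day 17. ADAMTS1 lost its call without day 11 replicate 1 or 2, day 12 replicate 3 or 4, or day 17 replicate 2 or 3 (6 of 16 embryos), and TIMP4 without day 12 replicate 4 or 5 or any day 17 embryo (5 of 16). Both also lost it with at least 10 cells per sum and in the fit with a term for label type, with adjusted p up to 0.351 for ADAMTS1 and 0.553 for TIMP4 over their alternatives. ADAMTS20 averaged 909.9, 316, 369, 809 and 1059 CPM on those days, with no call. Of the genes outside the name rule, MMP2 (0.24 per day, adjusted p = 0.0294) and TIMP2 (0.77, adjusted p = 0.0295) rose as well.

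The day 17 sums rest on 10, 6 and 5 TE cells. Without them no member passed in edgeR (6 of 15 tested had an unadjusted p under 0.05), while MMP12 and TIMP1 had slopes of 3.11 and 1.10 per day, each with an adjusted p of 0.0803. With only the embryos whose day is given as a developmental stage, 2 members passed, TIMP1 among the risers (0.86, adjusted p = 0.0323).

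**Figure D2:**
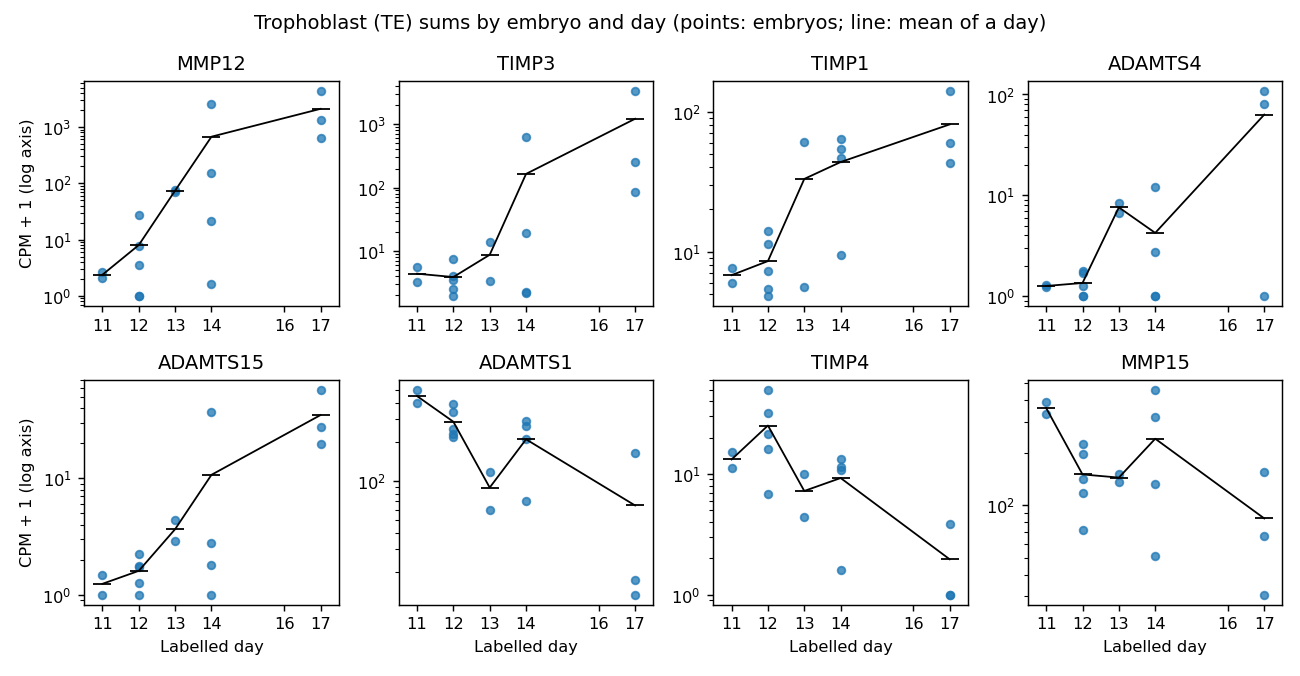
CPM + 1 on a log axis against day for 8 members in TE, with 1 point per embryo and a line through the mean of each day. MMP12, TIMP3 and ADAMTS15 are highest in the day 17 embryos and in day 14 replicate 3, and ADAMTS1 has its highest values, 499 and 396 CPM, on day 11.

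Within TE of days 13 to 17, MMP12 was highest in the cells with high PRG2, which encodes a protein of invasive trophoblast in human placenta. Of 162 cells, 21 had at least 1000 CPM of PRG2, a bound chosen after the data were seen. MMP12 was counted in 20 of these 21 cells at a median of 3649 CPM and in 54 of the other 141 cells at a median of 0 CPM. The PRG2-high cells also had a median of 748 CPM of HTRA4, a serine protease of placenta, against 0 CPM in the others. For CGA, the hormone subunit of syncytiotrophoblast, the medians were 260.2 and 5352 CPM, but 11 of the 21 PRG2-high and 10 of the other 141 cells were of day 17, when the highest TE cell had 260.2 CPM of it. Their median total was 145796 counts, against 81569 in the other cells, and 4 and 2 cells lay near the bound. Inside the 6 embryos with both classes, the median of MMP12 was higher in the PRG2-high cells in 6, that of HTRA4 in 5 and that of CGA in 3. In day 13 replicate 1, day 14 replicate 1 and day 17 replicate 3 these medians rest on very few PRG2-high cells. Those of day 14 replicate 1 held only 6526 and 8517 counts. The CGA medians were 539 and 11165 CPM on day 14 replicate 3, but 65.0 and 62.3 CPM on day 17 replicate 2. On day 14 replicate 3, the median of MMP12 was 1430.2 CPM in 7 PRG2-high cells and 14.4 CPM in 12 others, and on day 17 replicate 1 it was 6221 CPM in 6 and 180.3 CPM in 4.

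Several other members had higher medians in the PRG2-high cells, inside 6 of 6 embryos for ADAMTS20, MMP2 and ADAMTS15 and inside 5 for MMP19. The same few cells limit these tallies. No such tally over all genes is set beside them or beside that of MMP12, and the PRG2-high cells were deeper in counts. Over all embryos, ADAMTS20 had a median of 1166 CPM in the PRG2-high cells and 98.9 CPM in the others. MMP2 had 5041 and 1422 CPM, ADAMTS15 40.6 and 0 CPM, MMP19 54.9 and 0 CPM, and TIMP3 74.7 and 0 CPM. MMP15 (50.3 against 57.1 CPM) and ADAMTS1 (63.3 against 69.3 CPM) had close medians in both. Inside embryos TIMP3 did not follow PRG2: its median was higher in the PRG2-high cells in 2 of 6 embryos and lower in 3. On day 17 replicate 2 the median of TIMP3 was 0 CPM in 3 PRG2-high cells and 436 CPM in 3 others. Over the 162 cells, Spearman's rho of MMP12 was 0.56 with PRG2, 0.49 with HTRA4, 0.47 with ITGA1 and −0.36 with CGA, and that of MMP15 with CGA was 0.56. These cells share embryos and differ in depth and day, so the values are descriptions. ADAMTS20 in day 17 replicate 1 includes a cell at 38578 CPM.

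Because MMP12 is named for macrophages, markers of that cell type were read in the 20 TE cells with at least 1000 CPM of MMP12. PTPRC, CD14, C1QB and AIF1 were counted in 0 of 20, against 9, 21, 3 and 5 of the other 360 TE cells. A 0 in 20 cells allows up to 15% of cells with a count (3 of 20) and sets no bound on expression. CD68 was counted in 1 of 20 against 39 of 360 (0.862 and 2.91 CPM) and LYZ in 2 against 99 (2.01 and 10.6 CPM). CSF1R went the other way, in 5 of 20 against 9 of 360 (6.90 and 0.341 CPM), and its part in these results was not tested. The summed level of the 7 macrophage markers found (of 8) ran from 0 to 28.9 CPM over TE sums and from 0 to 41.7 CPM over EXMC sums. MMP12 counts were not limited to TE: 22.6% of TE cells, 30.9% of EXMC cells and 17.4% of EPI cells had at least 1 count, at median depths of 69067.5, 57567.0 and 64267.0 counts. The mean level and not the share of cells with a count was highest in TE. In EXMC the counts were uneven between embryos. The EXMC sums of day 14 replicate 3, day 17 replicate 1 and day 14 replicate 1 held 1516, 381 and 126 MMP12 counts. Each other EXMC sum held at most 44. TE of those same embryos held 6, 6 and 2 cells with at least 1000 CPM of MMP12, and a link between the families was not tested.

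**Figure D3:**
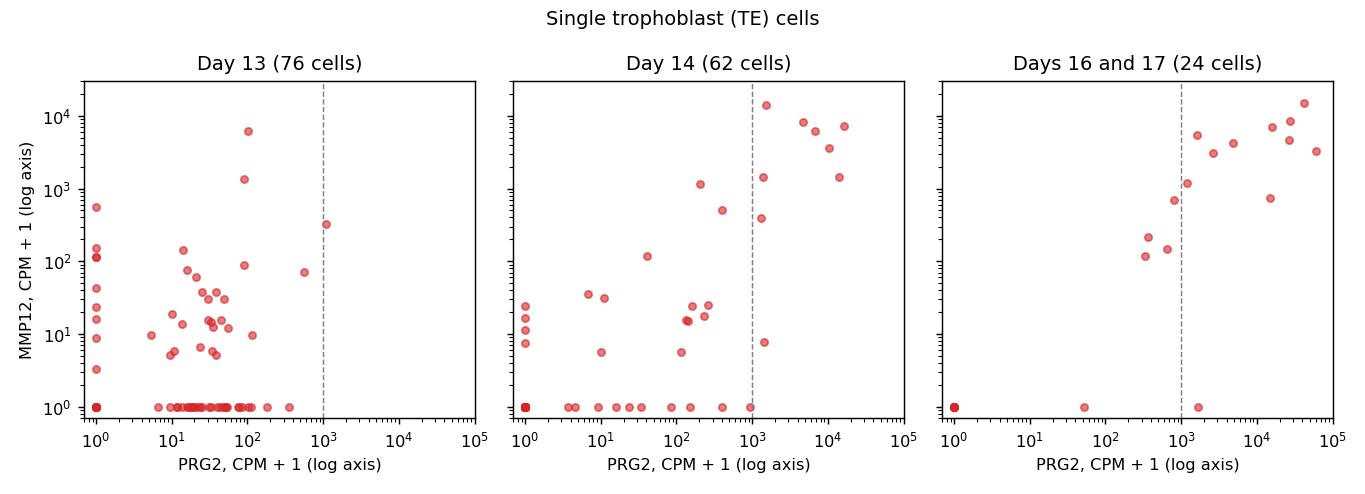
MMP12 against PRG2 in single TE cells, both as CPM + 1 on log axes, in panels for day 13, day 14 and days 16 and 17, with a dashed line at the PRG2 bound of 1000 CPM. The 21 cells at or right of the line have a median of 3649 CPM of MMP12, and 54 of the 141 cells left of it have any.

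EXMC carried the inhibitor TIMP1 as its highest member, at 694 ± 399 CPM (SD, n = 19), followed by ADAMTS6 at 343 ± 165, ADAMTS20 at 269 ± 176, ADAMTS9 at 168 ± 106 and ADAMTS1 at 155 ± 73.4 CPM. Against EPI in 13 embryos, 13 of 31 members tested were higher and 2 lower. Of all 15464 genes, 14.2% were called higher and 15.5% lower (29.7% in all). The median log2 difference was 1.57 over the members and −0.08 over all genes.

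TIMP1 had 254, 417 and 1142 CPM in EXMC and 7.37, 32.2 and 89.9 CPM in EPI (4.08 ± 0.22, adjusted p = 8.29e-12). ADAMTS6 had 166, 298 and 686 CPM in EXMC and 9.32, 34.0 and 46.1 CPM in EPI (3.37 ± 0.22, adjusted p = 2.54e-11). MMP28 had 21.01, 75.8 and 169 CPM in EXMC and 0, 2.24 and 17.0 CPM in EPI (5.00 ± 0.42, adjusted p = 7.46e-10). In these genes, and in ADAMTS1 with at least 58.6 CPM in EXMC and at most 35.0 CPM in EPI (4.14 ± 0.48, adjusted p = 5.3e-06), the families did not overlap. ADAMTS9, which cuts versican and aggrecan, had 34.1, 169 and 549 CPM in EXMC and 0, 9.21 and 58.0 CPM in EPI (4.23 ± 0.51, adjusted p = 1.68e-05). ADAMTS20 had 85.7, 275 and 722 CPM in EXMC and 11.3, 39.3 and 107 CPM in EPI (2.61 ± 0.35, adjusted p = 4.1e-05). Both were higher in EXMC of all 13 embryos.

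MMP19 (5.30 ± 0.83), the procollagen N-proteinase ADAMTS2 (3.22 ± 0.58) and ADAMTS15 (3.86 ± 0.72) were higher at medians of 8.86, 17.7 and 16.0 CPM in EXMC and of 0, 1.41 and 0.352 CPM in EPI. MMP14, MMP15, MMP16 and ADAMTS4 completed the higher group, and MMP11 was the lower gene beside MMP25. MMP25, a membrane-type MMP held by a lipid anchor, had medians of 0.814 CPM in EXMC and 11.4 CPM in EPI (−3.21 ± 0.91, adjusted p = 0.00857), a call that was lost without the day 16 embryos. TIMP3 (1.08 ± 0.46, adjusted p = 0.0813) and TIMP4 (−2.01 ± 0.87, adjusted p = 0.0838) did not pass. TIMP2 was higher by 0.98 ± 0.35 (adjusted p = 0.0333) and MMP2 by 1.31 ± 0.25 (adjusted p = 0.000734).

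Over time in EXMC, 5 of 23 members tested rose and 0 fell, against 11.8% of all 11056 genes called (7.15% up and 4.64% down). ADAMTS12 averaged 0.750, 2.26, 5.79, 9.25, 159 and 200.0 CPM on days 11, 12, 13, 14, 16 and 17 (1.44 ± 0.14 per day, adjusted p = 1.52e-06). It was counted in more cells as well, in 186 of 242 cells (76.9%) on days 16 and 17 and 43 of 243 (17.7%) on days 11 to 14. With each cell thinned to 20000 counts, these shares were 140 of 197 (71.1%) and 15 of 185 (8.11%). ADAMTS19 averaged 5.28, 7.78, 22.4, 50.1, 139 and 87.3 CPM (0.78 ± 0.11, adjusted p = 7.96e-05), with 73.1, 161 and 28.0 CPM in the day 17 embryos. It was lower on day 17 than on day 16 in its mean.

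TIMP1 rose at a high level, with means of 358, 332, 448, 958, 827 and 1207 CPM (0.28 ± 0.05 per day, adjusted p = 0.000686). MMP28 averaged 40.6, 67.0, 71.3, 127, 119 and 173 CPM (0.25 ± 0.06, adjusted p = 0.0117), a call lost with at least 10 cells per sum or without day 17 (adjusted p up to 0.0894). MMP16, a membrane-type MMP, averaged 10.3, 16.1, 17.9, 21.6, 38.8 and 48.7 CPM (0.32 ± 0.10, adjusted p = 0.0409), and its call was lost without any of 10 single embryos out of 19. TIMP2 rose too (0.35 per day, adjusted p = 0.00626), while TIMP3 did not pass (0.48, adjusted p = 0.139). Some secreted MMPs were uneven between embryos. MMP3, a stromelysin, had 213 CPM in EXMC and 217 CPM in TE of day 13 replicate 1 but at most 1.68 CPM in EXMC of the other day 13 embryos. In day 14 replicate 3 EXMC had 151 CPM of MMP3 and 92.0 CPM of MMP1, a collagenase whose gene lies beside it.

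**Figure D4:**
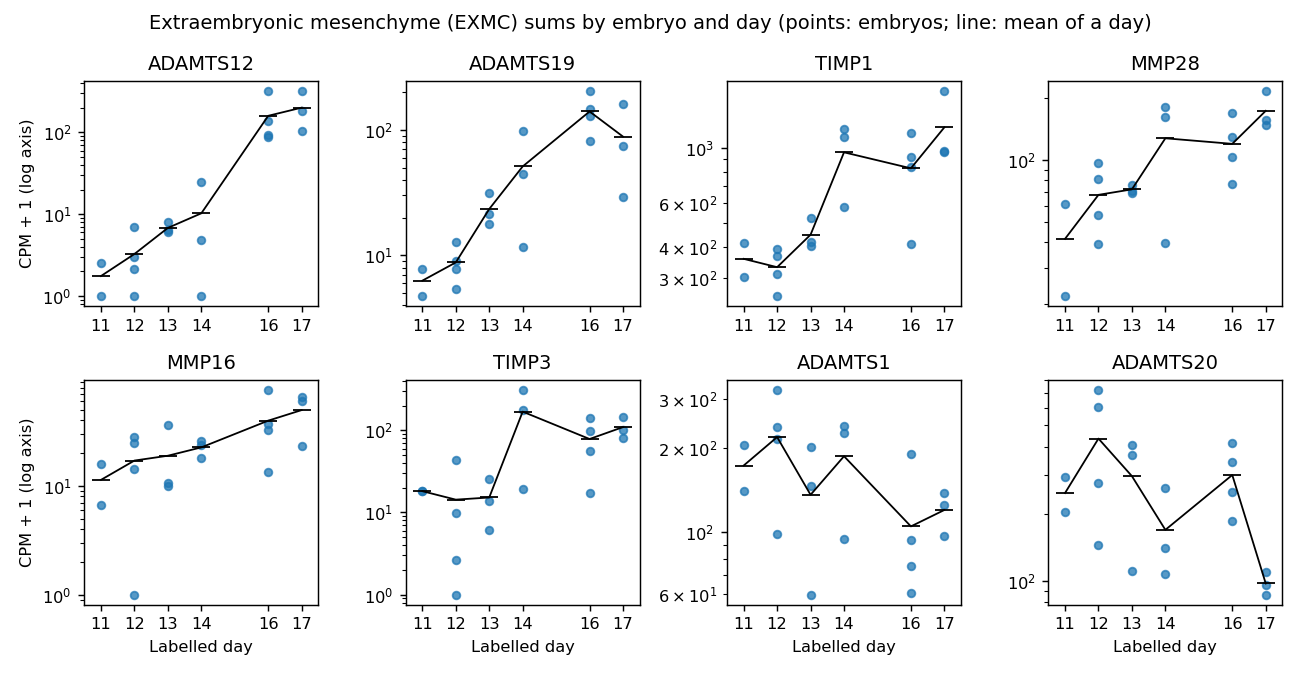
CPM + 1 on a log axis against day for 8 members in EXMC, with 1 point per embryo and a line through the mean of each day. ADAMTS12 lies between 87.5 and 318 CPM in the 7 embryos of days 16 and 17 and at or below 23.9 CPM before, and TIMP1 is at or above 254 CPM in all 19 embryos.

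A change called in one family and not in another need not differ between them, so the slopes themselves were compared. Of 31 members tested, 1 had a different slope in TE than in EXMC (2.69% of all genes called, 0.698% with a larger and 1.99% with a smaller slope in TE). ADAMTS15 rose by 1.31 ± 0.24 more per day in TE than in EXMC (adjusted p = 0.00311), where it had 16.1, 8.33 and 3.35 CPM on day 17. The difference was not called without the day 17 embryos (adjusted p = 0.349), with sums of at least 10 cells (0.310) or with developmental stage labels only (0.160). Between EXMC and EPI, 1 of 31 members differed (2.61% of all genes called, 2.11% with a larger and 0.498% with a smaller slope in EXMC). ADAMTS19 rose by 0.61 ± 0.12 more per day in EXMC than in EPI (adjusted p = 0.00565), and that was not called without day 16 (adjusted p = 0.189) or with at least 10 cells per sum (0.0722).

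VE/YE was set apart by ADAMTS19. Its level was 319 and 419 CPM on day 11, 463 on day 12, 346 on day 13, 490.0, 487, 499 and 919 on day 16, and 798 on day 17. It was counted in 96 of 101 cells (95.0%), and in 64 of 69 (92.8%) with cells thinned to 20000 counts. Against EPI in 7 embryos it had 319, 487 and 919 CPM in VE/YE and 20.1, 57.1 and 112 CPM in EPI (3.15 ± 0.23, adjusted p = 1.97e-09), with no overlap. It was the only higher one of 18 members tested, beside 5 lower, against 22.6% of all 12044 genes called (9.66% higher and 12.9% lower). The median log2 difference was −0.46 over the members, also with the genes at 0 set to their bound, and −0.18 over all genes.

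The inhibitors TIMP3 and TIMP4 were low in VE/YE. TIMP3 had 0 counts in the 7 VE/YE sums and 180 counts in EPI (1.26, 7.09 and 27.3 CPM), which makes it at least 20.0-fold lower when 3 counts over the group are taken as the floor (adjusted p of the fit = 0.00742). Including small groups of cells, 9 of 101 VE/YE cells had a TIMP3 count, and 1 of 69 after thinning. TIMP4 had 6 counts in VE/YE (0, 0 and 8.49 CPM) and 181 in EPI (4.48, 23.9 and 36.9 CPM), with a log2 difference of −4.11 ± 0.95 (adjusted p = 0.003). Neither call held with at least 10 cells per sum (adjusted p = 0.146 and 0.138). TIMP1 stood at 2.59, 23.2 and 53.2 CPM in VE/YE and 17.7, 31.6 and 34.8 CPM in EPI (−0.29 ± 0.60, adjusted p = 0.778).

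MMP9, the other gelatinase, had 0 counts in VE/YE and 49 in EPI, which is at least 5.45-fold lower against the same floor (adjusted p of the fit = 0.0281). DESeq2 did not call it (adjusted p = 0.201). ADAMTS20 had 3.94, 21.5 and 57.3 CPM in VE/YE and 37.8, 67.6 and 107 CPM in EPI (−1.73 ± 0.52, adjusted p = 0.0176), a call lost without day 11 replicate 2 or day 12 replicate 2 and at −0.73 with at least 10 cells. MMP25 was also called lower (adjusted p = 0.0381) but lost its call without any of 5 single embryos. With day, 0 of 9 members tested in VE/YE were called by edgeR (3 with an unadjusted p under 0.05, and 1 called by DESeq2), beside 0.145% of all genes (0.132% up and 0.0132% down). ADAMTS5, an aggrecan-cleaving protease, was uneven there, at 53.1 CPM in day 16 replicate 4, 134 CPM in day 17 replicate 3 and at most 9.85 CPM in the other 7 embryos.

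In EPI, 2 of 19 members tested fell with day and 0 rose, against 3.81% of all genes called (1.94% up and 1.87% down). The family merges an early type (postE-EPI, 170 cells) and a late type (postL-EPI, 134 cells). These numbers equal those of EPI cells on days 11 to 14 and on days 16 and 17. A slope with day and a step between the types therefore cannot be told apart. MMP9 had 22.5 and 25.2 CPM on day 11, 5.03 to 7.37 on day 12, 6.96 on day 13, 4.40 and 4.57 on day 14, 1.94, 1.03, 0.748 and 0 on day 16, and 0 and 3.00 on day 17 (−0.71 ± 0.16 per day, adjusted p = 0.0174). MMP15 had 44.9 and 23.5 CPM on day 11, 33.2, 28.9 and 9.90 on day 12, 12.2 on day 13, 17.6 and 16.0 on day 14, 0 to 1.03 on day 16, and 3.33 and 3.50 on day 17 (−0.78 ± 0.19, adjusted p = 0.0231). The 6 late embryos thus lay below all earlier ones for both genes. MMP15 was counted in 11 of 134 EPI cells (8.21%) on days 16 and 17 and in 89 of 170 (52.4%) on days 11 to 14. Thinned to 20000 counts, these were 2 of 115 (1.74%) and 36 of 132 (27.3%). Both calls were lost without day 11 replicate 1, that of MMP9 also without day 11 replicate 2, and MMP9 passed the filter on low counts in only 6 of the 14 fits that leave out an embryo.

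The inhibitors in EPI did not pass (adjusted p of 0.220 for TIMP1, 0.0975 for TIMP3 and 0.191 for TIMP4). The 5 highest members of EPI were ADAMTS19 (67.7 CPM on average), ADAMTS20 (45.8), TIMP1 (41.4), ADAMTS12 (39.4) and ADAMTS6 (32.2). For ADAMTS12 that mean rests on a cell: day 16 replicate 4 had 464 CPM and the other 13 embryos at most 18.7 CPM. In that embryo a single EPI cell held 826 of 879 ADAMTS12 counts (11590 CPM in that cell). The same embryo held 379 counts of ADAMTS13, the protease of von Willebrand factor, of which 366 came from 1 cell.

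Few members were called in AM or Gast against EPI, each from 6 embryos. In AM, 1 of 24 members tested was called, and it was higher, beside 4.63% of all genes (2.71% higher and 1.92% lower). ADAMTS9 had 5.88 and 0 CPM in AM on day 12 and 38.3, 148, 60.1 and 188 CPM on day 16, against 0, 6.10 and 22.1 CPM in EPI of the same 6 embryos (3.20 ± 0.81, adjusted p = 0.0293). It was higher in AM of 4 embryos, all of day 16, and the call was lost without day 16 replicate 2, 3 or 4. ADAMTS6 had 44.1, 78.0 and 373 CPM in AM and 11.7, 33.3 and 43.8 CPM in EPI with no overlap, yet did not pass. In Gast, 0 of 27 members were called by edgeR (5 with an unadjusted p under 0.05, and 5 called by DESeq2), beside 1.19% of all genes (0.554% higher and 0.634% lower). The smallest adjusted p there was 0.0706, for ADAMTS9, while MMP2 was higher in Gast by 1.13 ± 0.22 (adjusted p = 0.019). TIMP1, TIMP3 and TIMP4 did not pass in either family, with adjusted p of 0.0919 or more.

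The authors' finer types within these families are given as values with no test, since few embryos hold 3 or more cells of each. L-AM2 (4 embryos) had 283 ± 218 CPM of ADAMTS6, 166 ± 86.1 of ADAMTS9, 60.9 ± 26.6 of ADAMTS17 and 164 ± 114 of TIMP1 (SD). L-AM1 (3 embryos) had 66.2 ± 57.2, 27.1 ± 29.1, 8.49 ± 9.27 and 36.5 ± 16.4 CPM of the same genes. ADAMTS17 ranged from 22.5 to 84.1 CPM in L-AM2 and from 0 to 18.4 CPM in L-AM1, so these embryos did not overlap. L-Gast2 had 72.6 ± 61.8 CPM of ADAMTS1 and 148 ± 100.3 of ADAMTS9, and L-Gast1 had 1.69 ± 2.32 and 19.0 ± 22.05 CPM (SD, n = 4 each). TIMP4 went the opposite way, at 0.131 ± 0.261 CPM in L-Gast2 and 35.9 ± 36.9 CPM in L-Gast1. In the 3 PGC sums, all of day 16, ADAMTS19 was highest (115, 87.7 and 39.5 CPM), then ADAMTS9 (10.9, 76.4 and 111) and ADAMTS3 (71.1, 44.3 and 0).

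Inhibitor and protease RNA can be set against each other as the log2 ratio of the summed TIMP counts (TIMP1, TIMP3 and TIMP4) to the summed counts of the 21 MMPs. It averaged −2.98 ± 1.36 in TE, 1.58 ± 0.72 in EXMC, −0.81 ± 1.67 in VE/YE and −0.32 ± 0.82 in EPI (SD over embryos). The ratio was above 0 in 0 of 16 TE sums, 19 of 19 EXMC sums, 2 of 9 VE/YE sums and 6 of 14 EPI sums. The highest VE/YE value, 2 in day 16 replicate 2, rests on 4 counts of TIMP1 and 1 of MMP28. In TE the ratio averaged −4.64, −2.81, −3.71, −2.95 and −1.71 on days 11, 12, 13, 14 and 17. Adding MMP2 and TIMP2, a choice made after seeing the data, gave −4.18 in TE, 0.18 in EXMC, −1.55 in VE/YE and −1.49 in EPI. EXMC then had 12 of 19 sums above 0. The ratio is one of RNA counts and gives each gene its weight in counts. A mean of log2(CPM + 1) over 3 TIMPs minus that over 21 MMPs, many of them near 0, gave 1.99 in TE, 3.74 in EXMC, 1.08 in VE/YE and 2.75 in EPI. By this measure TE, VE/YE and EPI turned from below to above 0 and VE/YE stood below TE, while EXMC stayed highest and TE below EPI, so the sign of the balance depends on how genes are weighted.

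**Figure D5:**
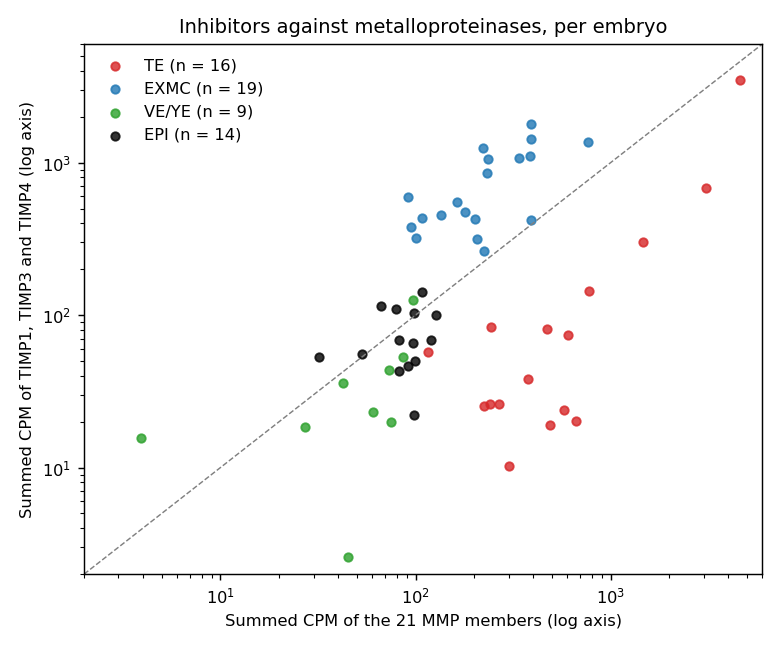
Summed CPM of TIMP1, TIMP3 and TIMP4 (vertical) against summed CPM of the 21 MMPs (horizontal), both on log axes, with 1 point per embryo for TE, EXMC, VE/YE and EPI and a dashed line where they are equal. All 16 TE points lie below the line and all 19 EXMC points above it.

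Other genes of matrix turnover were read from lists of 40 regulators (activators, receptors, other proteases and inhibitors) and 24 matrix substrates. In TE against EPI, 14 of 35 regulators tested were higher and 8 lower, and 6 of 21 substrates higher and 2 lower, beside 20.9% of all genes higher and 22.7% lower. The regulators with the smallest adjusted p were CTSL (4.08), a lysosomal cysteine protease, the serine protease HTRA1 (4.73), THBS2 (−5.31), a matrix glycoprotein, and FURIN (2.78), which activates membrane-type MMPs. In EXMC against EPI, 14 of 35 regulators were higher and 3 lower, and 17 of 20 substrates higher and 0 lower (14.2% and 15.5% of all genes). FURIN (3.61), the broad inhibitor A2M (5.26) and the plasminogen activator PLAU (3.52) led the regulators, and COL4A2 (5.16), NID1 (3.34) and VCAN (2.72), the versican that several ADAMTS members cut, the substrates. In TE against EXMC, 9 of 34 regulators were higher and 8 lower, and 1 of 22 substrates higher and 15 lower (17% and 16% of all genes), with log2 differences of −5.18 for VCAN and −4.20 for COL1A1. ADAMTS1 and ADAMTS20 were higher than in EPI in both TE and EXMC, while their substrate VCAN was low in TE and high in EXMC. In VE/YE against EPI, 7 of 26 regulators and 10 of 18 substrates were higher, among them LAMA1 (3.60) and FN1 (5.01), and 3 and 0 were lower (9.66% and 12.9% of all genes). In AM against EPI, 1 of 32 regulators and 5 of 19 substrates were higher (2.71% of all genes), and 0 regulators and 1 substrate, VCAN (−1.87), lower (1.92%). In Gast against EPI, 0 of 31 regulators and 4 of 19 substrates were higher and 0 lower by edgeR (0.554% and 0.634% of all genes).

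With day, 11 of 28 regulators tested rose in TE and 0 fell, and 13 of 20 substrates rose and 2 fell (8.07% and 6.78% of all genes). They included TFPI2 (0.97 ± 0.14 per day, adjusted p = 0.000283), an inhibitor of placenta, HTRA4 (1.499 ± 0.20, adjusted p = 0.000374) and the basement membrane collagen COL4A1 (1.00 ± 0.10, adjusted p = 2.97e-05). In EXMC, 9 of 25 regulators rose and 1 fell, and 9 of 18 substrates rose and 1 fell (7.15% and 4.64% of all genes). PCOLCE, the enhancer of procollagen C-proteinase, rose by 1.19 ± 0.14 per day (adjusted p = 2.45e-05) and the protease itself, BMP1, by 0.59. The collagens COL1A1 and COL1A2 rose by 0.68 per day each. In EPI, 0 of 27 regulators changed, and LUM (0.84) and DCN (0.86) rose among 17 substrates (1.94% of all genes rose).

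Sums over all cells of an embryo, which mix changes inside families with their shares among the picked cells, gave 15 of 32 members called with day, 11 up and 4 down, against 21.9% of all 15924 genes (11.4% up and 10.5% down). In such sums more cells of a type and more RNA per cell cannot be told apart. ADAMTS12 (1.22 per day), TIMP3 (0.86), TIMP1 (0.53) and MMP28 (0.53) led the risers, and MMP15 (−0.56), ADAMTS1 (−0.35), TIMP4 (−0.33) and ADAMTS20 (−0.24) fell. TIMP4 lost its call without any of 7 single embryos of days 12, 16 and 17, TIMP3 without day 17 replicate 1, both with developmental stage labels only or without day 17, TIMP1 without day 17 and ADAMTS1 without day 16. ADAMTS20 was not called in any single family with day, and MMP15, ADAMTS1 and ADAMTS20 were highest in TE, of which the day 16 samples held 3 cells. The part of that share in these slopes was not tested.

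Whether reads of some members were mixed with those of overlapping genes is not known, because no source used here says whether counting used the strand. In the RefSeq annotation of assembly T2T-MFA8v1.1, TIMP1, TIMP3 and TIMP4 overlap SYN1, SYN3 and SYN2. MMP11 overlaps CHCHD10, MMP28 overlaps C16H17orf50, MMP24 overlaps MMP24OS and ADAMTS18 overlaps SYCE1L. MMP26 overlaps OR51A7 and other OR51 genes, and TIMP2, outside the name rule, overlaps CEP295NL. These are overlaps of whole gene spans, and exons were not compared. Values of these genes are uncertain to that extent. Of the lowest members, MMP21 had 22 of its 23 counts in TE, 18 of them in day 11 replicate 2, while MMP8 and MMP26 had 1 count each in the table.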

How the data were processed

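The deposited table holds whole-number read counts per gene and cell, per the file headers, and a second deposited table gives each cell's day and type as annotated by the authors. The authors aligned reads with STAR, per the submitters' processing notes. No source used here names the STAR version, genome build, counter, filters or handling of PCR duplicates, so intervals and floors (95% exact binomial for shares, 3 counts for a 0) cover counting error only. Cells had a median of 61090.0 counts.

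The members and lists were chosen with earlier results of these data known. Counts were summed per embryo and family (at least 5 cells; 3 for finer types), scaled by TMM and filtered with filterByExpr, and tested with edgeR 4.0.16 (glmQLFit, robust, and glmQLFTest; R 4.3.3), with day as a number, or with the embryo as a block between families. P-values were adjusted by Benjamini-Hochberg over all genes tested, and the pipeline was tested on simulated data. Cells of both families come from the same embryos, which is where the pairing comes from. The replicate numbers were given in accession order and pair nothing across days. No source used here says whether embryos came from separate animals.

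Values in full are given for members called, at most the 10 with the smallest adjusted p per comparison, for the 5 highest of each family and for all TIMPs, and from the pathway lists for at most 4 genes per comparison. Members named beyond that rule, with MMP2, the PRG2 classes, finer types and uneven embryos, were chosen after their values were seen. Shares of cells were repeated with each cell thinned to 20000 counts, which left out 300 shallower cells. The label that holds the day is a developmental stage in 16 embryos and a culture stage in 5 (replicates 1 and 2 of days 17 and 13, and replicate 1 of day 12). No other batch is named. Alternatives were DESeq2 1.42.0, RLE scaling, no filter, at least 10 cells, no block, label type, days left out and each embryo left out. Gene names for 3273 numbered identifiers came from the RefSeq table of T2T-MFA8v1.1.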

Additional observations from a re-analysis of the deposited data

Results flagged for a closer look

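Of 39 groups of 4 to 10 embryos (a member in a family on a day, with a mean of at least 10 CPM), 4 held an embryo far from the others. A group could reach that mean through the far embryo itself, and MMP12 and TIMP3 were flagged in the same TE sum. The number of flags is therefore not a result, and the groups are given as values to look at. MMP12 in TE of day 14 had 2515 CPM in replicate 3 and 0.607 to 151 CPM in the other 3 embryos. TIMP3 in the same TE sum had 633 CPM, against 1.17 to 18.4 CPM. Without that embryo, both slopes with day were still called (1.62 per day, adjusted p = 0.000649, for MMP12 and 1.61, adjusted p = 0.000239, for TIMP3). Of its 19 TE cells, 7 had at least 1000 CPM of PRG2.

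ADAMTS12 in EPI of day 16 had 464 CPM in replicate 4 and 2.26 to 18.7 CPM in the others, and 826 of its 879 counts came from 1 cell. ADAMTS19 in VE/YE of day 16 had 919 CPM in replicate 4 and 487 to 499 CPM in the others.

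A pair of slopes differed between families. ADAMTS15 rose by 1.31 ± 0.24 more per day in TE than in EXMC (adjusted p = 0.00311), and ADAMTS19 rose by 0.61 ± 0.12 more per day in EXMC than in EPI (adjusted p = 0.00565).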

How the results depend on the processing

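Members called are given here per comparison, without the share of all genes called under each setting. A change in these counts is therefore not a result about the members. DESeq2 called more than edgeR in AM against EPI (5) and Gast against EPI (5), and with day in EPI (4), EXMC (10), VE/YE (1), EXMC minus EPI (7) and TE minus EXMC (10). Without a filter on low counts, 2 were called in AM against EPI, and with day 5 in EPI, 9 in EXMC, 2 in VE/YE, 5 in EXMC minus EPI and 9 in TE minus EXMC. With at least 10 cells per sum, 2 were called in AM, 1 in VE/YE against EPI, and with day 3 in EXMC, 5 in TE and 0 in both slope differences (6 and 5 with an unadjusted p under 0.05). Without the replicate block, 6 were called in TE, 7 in EXMC, 2 in VE/YE and 1 in Gast against EPI, and 2 in EXMC minus EPI, where fewer genes passed the filter; the count in TE against EXMC stayed within 1.5 times.

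Without day 16, 0 members were called in EPI and 0 in EXMC minus EPI (6 and 5 unadjusted). Without day 17, 3 were called in EXMC, 0 in TE (6 unadjusted), 0 in TE minus EXMC (4 unadjusted), 2 in EXMC minus EPI and 9 over all cells. With the label type as a covariate, 9 were called in EXMC and 2 in EXMC minus EPI, and with developmental stage labels only, 2 in TE and 0 in TE minus EXMC (9 unadjusted). RLE scaling kept all 13 counts within 1.5 times. Leaving out each embryo gave 0 to 1 (AM), 13 to 16 (EXMC), 0 to 2 (Gast), 12 to 14 (TE) and 4 to 5 (VE/YE) against EPI, 15 to 18 in TE against EXMC, and with day 0 to 3 (EPI), 4 to 7 (EXMC), 6 to 10 (TE), 0 to 0 (VE/YE), 11 to 18 (all cells), 1 to 2 (EXMC minus EPI) and 1 to 5 (TE minus EXMC).

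The log2 ratio of TIMP to MMP RNA was 1.99 in TE, 3.74 in EXMC, 1.08 in VE/YE and 2.75 in EPI as a difference of mean log2(CPM + 1), and 0.18 in EXMC and −1.49 in EPI with MMP2 and TIMP2 added. Signs turned for values that were not called: TIMP3 in AM (−0.54 with at least 10 cells, −0.38 to 1.30 over single embryos left out), in TE against EPI (−1.10 to 0.51 over single embryos left out) and in TE against EXMC (2.32 without the replicate block), and TIMP1 in VE/YE against EPI (0.022 without the replicate block, 0.37 without day 16, −0.61 to 0.15 over single embryos left out), in EXMC minus EPI (−0.15 with at least 10 cells, −0.10 without day 16, −0.045 to 0.047 over single embryos left out) and with day in VE/YE (−0.30 with at least 10 cells, −0.017 without day 17 or without its 1 embryo, which with 0.30 bounds the single embryos left out). The causes were not tested. Few cells per sum and members near 0 counts limit all comparisons of AM, Gast, PGC and VE/YE.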
